A study of Mus musculus with 6 samples.

Results

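Chemokines and their receptors were taken from a gene count table of mouse tumours as all protein-coding genes whose symbol names a chemokine (Ccl, Cxcl, Cx3cl or Xcl with a number, plus Pf4 and Ppbp) or a chemokine receptor (Ccr, Cxcr, Cx3cr, Xcr or Ackr with a number). The rule reads names only and no measured value. It found 56 of the 19288 genes in the table, 34 ligands and 22 receptors.

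The tumours grew from LLC1 cells, a Lewis lung carcinoma line, implanted under the skin of mice carrying a beta-hCG transgene. Beta-hCG is the beta chain of the pregnancy hormone human chorionic gonadotropin, and every host in the series carried it. Hosts were bred from CB57BL/6 females (spelled so in the labels) and transgenic FVB males. RNA was sequenced from 3 groups of 2 libraries, all taken 30 days after implantation. The first group came from transgenic hosts for which no ovariectomy and no supplementation is named (transgenic tumours). The second came from ovariectomized hosts supplemented with vehicle for 28 days (vehicle tumours), and the third from ovariectomized hosts supplemented with progesterone for 28 days (progesterone tumours). The sources used here do not give host age, or the promoter and expression site of the transgene. Vehicle and transgenic tumours differ by ovariectomy and by vehicle, and the effects of these cannot be told apart. The labels do not say that the libraries of a group came from separate animals, and p-values then cover only how far these libraries spread, which may be technical.

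Chemokines are small secreted proteins that direct the movement of white blood cells along concentration gradients, and they act through G protein-coupled receptors on the cells they attract. CCR2 ligands draw monocytes, CXCR2 ligands draw neutrophils, and CXCR3 ligands, induced by interferon gamma, draw activated T and NK cells. In tumours they are made by cancer cells, macrophages, fibroblasts and endothelial cells, and they influence which white blood cells enter. Atypical receptors bind chemokines without G protein signalling and clear or store them.

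Library totals ran from 19526775 to 30083925 counts, so the 3 counts that a count of 0 allows are 0.159 CPM (counts divided by library size, with TMM scaling) in vehicle library 2 and 0.103 CPM in vehicle library 1, counting error only. All levels below are TMM-scaled CPM, given for library 1 and then library 2 of a group. Across all genes tested, transgenic library 1 had a Spearman correlation of 0.969 with transgenic library 2, against 0.985 and 0.987 with the vehicle libraries, so transgenic library 2 stood apart from its group. The progesterone libraries too correlated no more with each other (0.974) than progesterone library 1 did with the vehicle libraries (0.977 and 0.983), and progesterone library 2 was at 0.973 and 0.977 with these. Krt8 and Krt18, keratins of the carcinoma cells, were at 135 to 393 and at 125 to 370 CPM, while the lung epithelial genes Sftpc and Epcam reached at most 0.0371 and 0.222 CPM. All listed epithelial markers (6 of 7 in the table) summed to 267 and 766 CPM in transgenic libraries, the lowest and the highest of the 6. The sums were 395 and 470 CPM in vehicle and 632 and 577 CPM in progesterone libraries. The part of this spread in the chemokine values was not tested. The counts do not separate RNA of the tumour cells from RNA of the host cells in the tumour.

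The 34 ligands summed to 1638 and 780.5 CPM in transgenic, to 1661 and 819.8 CPM in vehicle, and to 1164 and 1175 CPM in progesterone libraries. The transgenic and vehicle groups thus each held a library with a high and a library with a low sum, and both progesterone libraries lay between these. The 22 receptors summed to 152 and 199.5 CPM in transgenic, to 156 and 159.8 CPM in vehicle and to 175 and 209 CPM in progesterone libraries. Ccl2 alone took 35.7% and 19.1% of the ligand counts in transgenic, 42.7% and 34.4% in vehicle, and 28.7% and 14.5% in progesterone libraries. In bulk tumour RNA, fewer cells of a type and less RNA per cell cannot be told apart, for these and all following values.

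**Figure D1:**
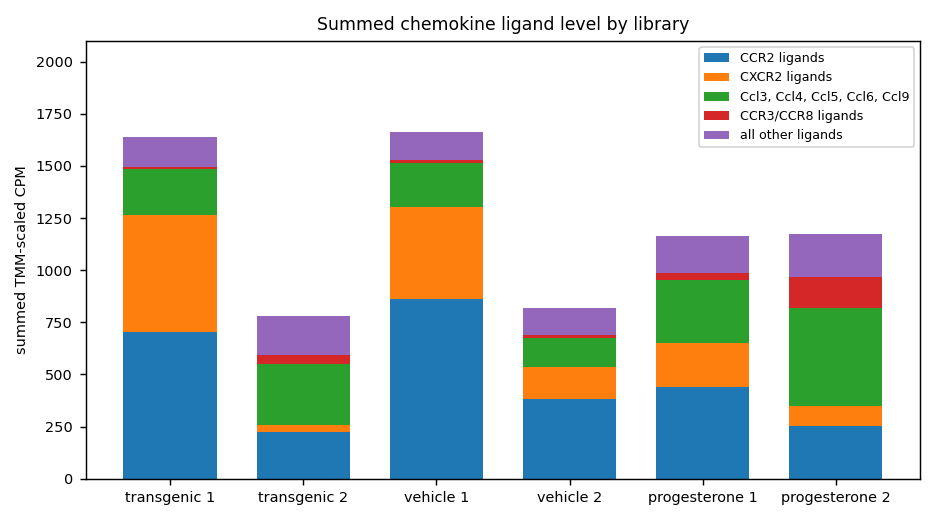
Stacked bars give the summed TMM-scaled CPM (vertical axis) of the chemokine ligands in each of the 6 libraries (horizontal axis), coloured by ligand group. The CCR2 and CXCR2 ligands make up most of the bars of transgenic library 1 (705 and 561 CPM) and vehicle library 1 (861 and 444 CPM), while the group of Ccl3, Ccl4, Ccl5, Ccl6 and Ccl9 is the largest part in transgenic library 2 (288 CPM) and progesterone library 2 (471 CPM).

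After the filter on low counts 13632 genes were tested, among them 42 chemokine genes (28 ligands and 14 receptors). The filter asks for enough counts in 2 libraries, so a rare gene could pass through the group in which it was high, and counts over these 42 genes are given as descriptions. Ccr3, Cxcr3 and Xcl1 passed it through the progesterone libraries alone, so each had to be high there to be counted. Their places in the lists below support nothing, and their own values are described by counts. A gene was called at an edgeR adjusted p under 0.05 (quasi-likelihood test, Benjamini-Hochberg over all genes tested). With 2 libraries a group, the exact permutation test of a single gene cannot go below p = 0.333.

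Vehicle tumours had lower levels than transgenic tumours for most of the tested chemokine genes, and none was called. Of the 42, 17 had a log2 fold change above 0 and 25 below, with a median of -0.33 against -0.01 over all genes. The edgeR test called 0 chemokine genes (0% of all genes were called, smallest adjusted p of a chemokine gene 0.81), limma-voom also called 0 and DESeq2 called 0. At an unadjusted edgeR p under 0.05 there were 0 higher and 3 lower chemokine genes (Cxcl9, Ccl4 and Ccl8), where 5.57% of all genes passed in either direction. The 2 groups did not overlap for 1 chemokine gene that was higher in the vehicle tumours (2.38%, against 17.9% of all genes) and for 11 that were lower (26.2%, against 17.7%). The higher gene was the eosinophil attractant Ccl11. The lower genes were Ccl4, Ccl5, Ccl9, Ccl22, Ccl24, Cxcl9, Cxcl10, Cxcl14, Ccr4, Ccr9 and Cxcr3. Without transgenic library 2 the groups did not overlap for 4 higher (9.52%, against 36.5% of all genes) and 18 lower genes (42.9%, against 34.3%). The median moved between -0.59 without vehicle library 1 and -0.10 without transgenic library 1.

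Progesterone tumours had higher levels than vehicle tumours for 29 of the 42 genes and lower levels for 13, with a median log2 fold change of 0.47 against 0.01 over all genes. None was called by edgeR (0% of all genes, smallest adjusted p of a chemokine gene 0.868) or by limma-voom, and DESeq2 called 1, Ccl9. At an unadjusted edgeR p under 0.05 there were 10 higher (Ccl6, Ccl8, Ccl9, Ccl22, Ccl24, Cxcl9, Pf4, Xcl1, Ccr9 and Cxcr3) and 0 lower, where 5.29% of all genes passed in either direction. The groups did not overlap for 20 genes that were higher in the progesterone tumours (47.6%, against 18.5% of all genes), namely 12 ligands and 8 receptors. These 20 include Xcl1, Ccr3 and Cxcr3, which had to be high in the progesterone libraries to pass the filter. The 47.6% is thus partly set by the filter, as are Xcl1 and Cxcr3 among the 10 above. For 4 genes, Ccl7, Ccl25, Cxcl5 and Cx3cr1, both progesterone libraries lay below both vehicle libraries (9.52%, against 17.8%). The inflammatory CC ligands Ccl3, Ccl4, Ccl5, Ccl6 and Ccl9 and the receptors Ccr1, Ccr2, Ccr3, Ccr4, Ccr7 and Ccr9 were among the 20. Without vehicle library 1 the median was 1.10. With progesterone library 2 left out, 24 genes were higher without overlap (57.1%, against 38.8% of all genes).

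Progesterone tumours against transgenic tumours gave 27 genes above and 15 below 0, with a median of 0.30 against 0.01 over all genes. The edgeR test called 0 chemokine genes (0% of all genes, smallest adjusted p 0.914), and limma-voom and DESeq2 called 0 as well. At an unadjusted edgeR p under 0.05 there were 4 higher (Ccr3, Pf4, Xcl1 and Ccl9) and 0 lower, where 5.27% of all genes passed in either direction. The groups did not overlap for 10 higher genes (23.8%, against 14.5% of all genes) and for 1 lower gene, Cxcl10 (2.38%, against 14.5%). Ccr3, Cxcr3 and Xcl1, which passed the filter through the progesterone libraries alone, were among the 10. The 23.8% is thus partly set by the filter, as are Ccr3 and Xcl1 among the 4. Without transgenic library 1 the median was 0.83, and without progesterone library 2 it was 0.08. The counts without overlap moved to 21 higher and 13 lower without transgenic library 2 (32.5% and 31.5% of all genes), and to 13 and 7 without progesterone library 2 (32.5% and 32.3%). Each of the 3 groups serves in 2 comparisons, so the fold changes of the comparisons are not independent of each other.

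**Figure D2:**
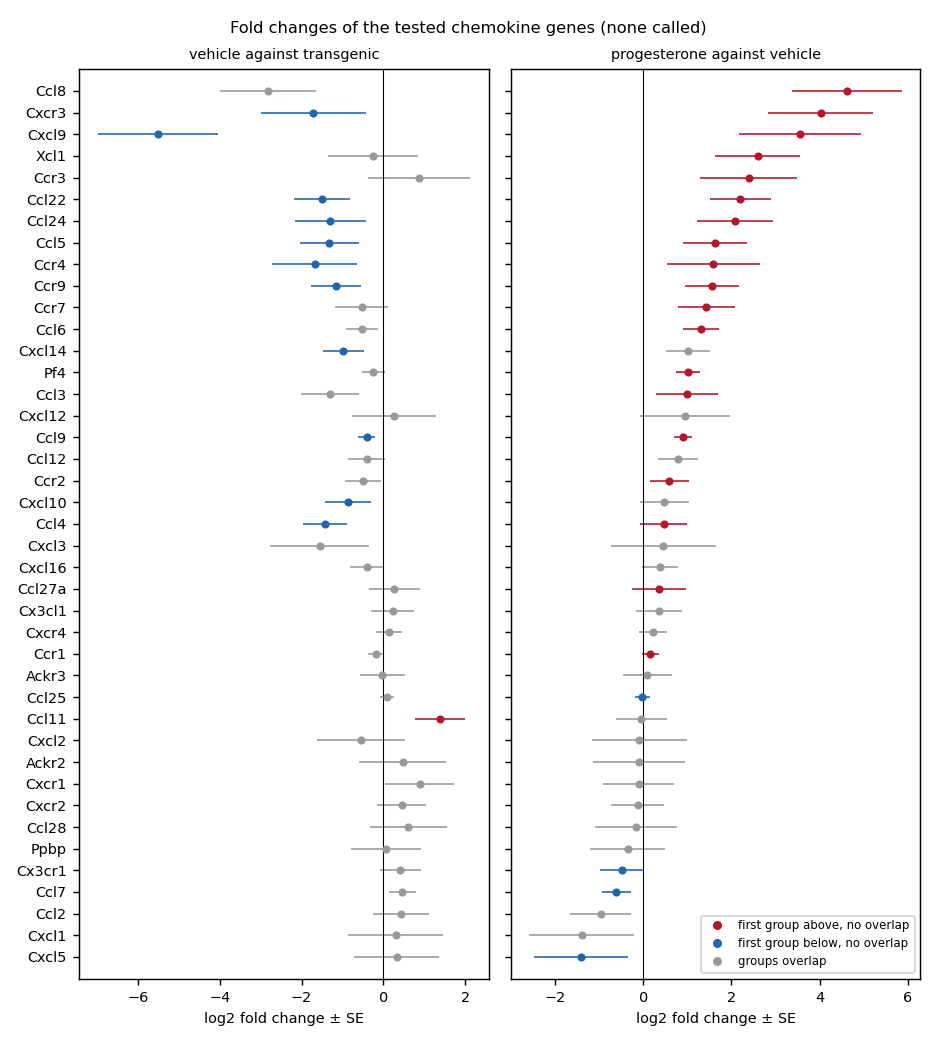
Log2 fold changes (horizontal axes, edgeR, bars are the standard error) of 41 tested chemokine genes, for vehicle against transgenic tumours on the left and progesterone against vehicle tumours on the right, in the order of the right panel. Red and blue mark genes whose first group lay above or below the second without overlap. The right panel has 19 red and 4 blue points, the left panel 1 red and 11 blue, and the vehicle libraries enter both.

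Among the CCR2 ligands, the monocyte attractant Ccl2 (MCP-1; ENSMUSG00000035385, chromosome 11, 82035571 to 82037453, plus strand, GRCm38) was the most abundant chemokine by CPM per kilobase of exon, with group means of 322 in transgenic, 435 in vehicle and 222 in progesterone tumours. By CPM it was at 584 and 149 in transgenic, 709 and 282 in vehicle and 334 and 170.4 in progesterone libraries. Library 1 was higher than library 2 in each group, by 3.93-fold in the transgenic tumours, and the 3 groups overlapped. Progesterone against vehicle tumours gave a log2 fold change of -0.97 ± 0.69 (SE, edgeR adjusted p = 0.999).

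Ccl7, a second CCR2 ligand, was at 107.5 and 59.5 CPM in transgenic, 136 and 93.7 CPM in vehicle and 88.6 and 61.2 CPM in progesterone libraries. Both progesterone libraries lay below both vehicle libraries (log2 fold change -0.62 ± 0.33 SE, edgeR unadjusted p = 0.103). Ccl12, the third CCR2 ligand, was at 13.5 and 16.6, 16.1 and 6.41, and 15.3 and 23.6 CPM in the same order, and all groups overlapped. Per kilobase of exon, Ccl7 had group means of 104, 143.5 and 93.5 CPM and Ccl12 of 28.0, 21 and 36.2 CPM in transgenic, vehicle and progesterone tumours.

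For each of the 5 inflammatory CC ligands Ccl3, Ccl4, Ccl5, Ccl6 and Ccl9, both progesterone libraries were above both vehicle libraries. Ccl9, a macrophage product that acts on CCR1, was at 74.7 and 95.5 CPM in transgenic, 70.5 and 57.0 CPM in vehicle and 107 and 132 CPM in progesterone libraries. The 3 groups did not overlap, with vehicle lowest and progesterone highest. Its log2 fold change was 0.90 ± 0.20 (SE) for progesterone against vehicle tumours (edgeR unadjusted p = 0.00267, adjusted p = 0.868), -0.41 ± 0.20 for vehicle against transgenic, and 0.49 ± 0.20 for progesterone against transgenic.

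Ccl6, a further CCR1 ligand of myeloid cells, was at 109 and 183 CPM in transgenic, 127 and 74.6 CPM in vehicle and 174 and 326 CPM in progesterone libraries. Both progesterone libraries were above both vehicle libraries (log2 fold change 1.31 ± 0.40 SE, edgeR unadjusted p = 0.0136, adjusted p = 0.932), and the transgenic group overlapped both. Without progesterone library 2 this fold change was 0.79.

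Ccl3 (MIP-1 alpha), an inflammatory CC ligand that acts on CCR1, was at 20.8 and 4.21 CPM in transgenic, 6.04 and 4.08 CPM in vehicle and 12.7 and 7.49 CPM in progesterone libraries. Transgenic library 1 was 4.94-fold above transgenic library 2, so this group spanned the others. Ccl4 (MIP-1 beta), a product of activated macrophages and T cells, was at 12.0 and 4.17 CPM in transgenic, 3.09 and 2.92 CPM in vehicle and 4.40 and 3.85 CPM in progesterone libraries, and the vehicle libraries were the lowest of the 6. Vehicle against transgenic tumours gave -1.43 ± 0.53 (log2, SE, edgeR unadjusted p = 0.0310, adjusted p = 0.837), and -0.47 without transgenic library 1. Ccl5 (RANTES), a product of T cells and other cells, was at 0.593 and 1.77, 0.412 and 0.530, and 1.74 and 1.16 CPM, and again both vehicle libraries were the lowest.

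Of the ligands of CCR3 and CCR8, Ccl8 (MCP-2; ENSMUSG00000009185, chromosome 11, 82115185 to 82116799, plus strand) spread the most across the 6 libraries. It was at 3.15 and 42.0 CPM in transgenic, 3.36 and 3.02 CPM in vehicle and 27.3 and 130.1 CPM in progesterone libraries. Transgenic library 1 was at the level of the vehicle libraries, and transgenic library 2 lay between the progesterone libraries. Progesterone against vehicle tumours gave a log2 fold change of 4.62 ± 1.25 (SE, edgeR unadjusted p = 0.00751, adjusted p = 0.932), which was 3.09 without progesterone library 2. Vehicle against transgenic tumours gave -2.81 ± 1.17 with all libraries and 0.03 without transgenic library 2, so this difference rested on that library.

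Ccl11 (eotaxin-1), which attracts eosinophils, was at 6.08 and 2.11 CPM in transgenic, 12.1 and 9.17 CPM in vehicle and 6.14 and 14.6 CPM in progesterone libraries. The transgenic libraries were the lowest of the 6. The log2 fold change was 1.38 ± 0.60 (SE, edgeR unadjusted p = 0.0556) for vehicle against transgenic and 1.33 ± 0.60 for progesterone against transgenic tumours, and 0.81 and 0.76 without transgenic library 2. Ccl24 (eotaxin-2) was lower still, at 1.30 and 1.39, 0.892 and 0.159, and 1.24 and 3.39 CPM, with the vehicle libraries the lowest of the 6.

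Ccl22, a CCR4 ligand of dendritic cells and macrophages, was at 1.04 and 1.90 CPM in transgenic, 0.686 and 0.318 CPM in vehicle and 3.17 and 1.57 CPM in progesterone libraries. The vehicle libraries were the lowest, with log2 fold changes of -1.51 ± 0.69 (SE) against transgenic and 2.20 ± 0.69 for progesterone against vehicle tumours (edgeR unadjusted p = 0.0154, adjusted p = 0.932). Ccl25, which acts on CCR9, was the most even member, at 36.2 and 41.9, 41.7 and 40.9, and 40.7 and 40.7 CPM. Its progesterone libraries lay below its vehicle libraries without overlap at a log2 fold change of only -0.02 ± 0.17, so groups that do not overlap can still be nearly equal. The CCR10 ligands Ccl27a and Ccl28 stayed between 0.464 and 2.30 CPM in all libraries. Reads of Ccl27a can be split with near-identical copies, so its level is uncertain.

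The CXCR2 ligands Cxcl1, Cxcl2, Cxcl3, Cxcl5 and Ppbp, the neutrophil attractants, differed more between libraries of a group than between groups. Summed, they were at 561 and 35.1 CPM in transgenic, 444 and 153 CPM in vehicle and 213 and 92.9 CPM in progesterone libraries. Transgenic library 2 was the lowest of the 6 libraries for each of these 5 genes. No chemokine gene of this set passed an unadjusted p of 0.05 in any comparison. The lowest adjusted p over the 3 comparisons was 0.937.

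Cxcl1 (KC; ENSMUSG00000029380, chromosome 5, 90891241 to 90893115, plus strand) was at 304 and 17.3 CPM in transgenic, 311 and 84.1 CPM in vehicle and 113 and 36.5 CPM in progesterone libraries. Library 1 was higher in each group, 17.6-fold in the transgenic tumours, and all groups overlapped. Progesterone against vehicle tumours gave -1.40 ± 1.18 (log2, SE). Cxcl2 (MIP-2) was at 122 and 8.94, 69.0 and 19.2, and 59.6 and 23.6 CPM in transgenic, vehicle and progesterone libraries, and Cxcl3 at 66.7 and 3.54, 20 and 3.66, and 20.9 and 11.8 CPM. For Cxcl2 and Cxcl3 too, library 1 exceeded library 2 in each group, and no group stood clear of another. Ppbp, the platelet basic protein, followed the same order at lower levels, from 2.91 CPM in transgenic library 2 to 14.6 CPM in vehicle library 1.

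Cxcl5 (LIX) broke this order. It was at 54.7 and 2.44 CPM in transgenic, 29.2 and 42.3 CPM in vehicle and 11.9 and 14.9 CPM in progesterone libraries, and the progesterone libraries lay below the vehicle libraries. The log2 fold change was -1.41 ± 1.06 (SE, edgeR unadjusted p = 0.224) for progesterone against vehicle tumours. The 22.4-fold gap between the transgenic libraries was the widest within a group among the tested chemokine genes. Vehicle against transgenic tumours gave 3.87 without transgenic library 1 and -0.61 without transgenic library 2, so the sign of that comparison depended on 1 library.

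Promoters of Cxcl1 and Cxcl2 are shown because library 1 exceeded library 2 in each group for both genes and both carry letters matching the binding motif of NF-kB, the transcription factor that links inflammatory signals to these genes. The stretches are RefSeq sequence of GRCm38.p6, read 5′ to 3′ on the strand of the gene and ending before the transcript, with matches to GGGNNTTNCC on either strand in capitals. They span chr5:90891125-90891240 (plus strand) for Cxcl1, with matches beginning 85 and 67 bases before the end of the stretch, and chr5:90903779-90903870 (plus strand) for Cxcl2, with matches at 69 and 50 bases.
Cxcl1: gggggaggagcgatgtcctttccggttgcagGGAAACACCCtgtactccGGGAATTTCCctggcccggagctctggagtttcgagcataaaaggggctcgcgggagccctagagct
Cxcl2: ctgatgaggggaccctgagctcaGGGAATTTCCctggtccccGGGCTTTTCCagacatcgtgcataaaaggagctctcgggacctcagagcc

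Such a match was in the 250 bases before the start in 1350 of 32851 RefSeq promoters (4.11%), and in those of 9 of the 43 chemokine genes found in the promoter table (Ccl9, Ccl20, Ccr3, Ccr6, Cxcl1, Cxcl2, Cxcl3, Cxcl9 and Cxcl10). The 9 were not alike in level: Ccl9 was highest in the progesterone libraries, where Cxcl1 was not, and Ccl20 had a single read in all 6 libraries. A match is a description of letters and no evidence of binding.

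The CXCR3 ligands Cxcl9 and Cxcl10 are textbook targets of interferon gamma. Cxcl9 (MIG; ENSMUSG00000029417, chromosome 5, 92321347 to 92328079, minus strand) was at 2.56 and 35.7 CPM in transgenic, 0.274 and 0.583 CPM in vehicle and 8.46 and 1.41 CPM in progesterone libraries. The vehicle libraries held 8 and 11 counts, the lowest of the 6, and transgenic library 2 held 847 counts, the highest. Vehicle against transgenic tumours gave a log2 fold change of -5.51 ± 1.47 (SE, edgeR unadjusted p = 0.00698, adjusted p = 0.81), which was -2.59 without transgenic library 2. Progesterone against vehicle tumours gave 3.56 ± 1.39 (edgeR unadjusted p = 0.0371), and 1.75 without progesterone library 1.

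Cxcl10 (IP-10) was far more even, at 6.15 and 6.03 CPM in transgenic, 4.94 and 1.64 CPM in vehicle and 5.64 and 3.56 CPM in progesterone libraries. The transgenic libraries were the highest of the 6. The log2 fold change was -0.88 ± 0.56 (SE) for vehicle and -0.40 ± 0.56 for progesterone against transgenic tumours. Cxcl9 and Cxcl10 are neighbours on chromosome 5, and their promoters are shown to set their letters side by side. They span chr5:92328080-92328219 (minus strand) for Cxcl9, with an NF-kB match beginning 130 bases before the end of the stretch, and chr5:92348890-92349109 (minus strand) for Cxcl10, with an NF-kB match at 103 bases and a match to the interferon-stimulated response element at 213 bases, all in capitals.
Cxcl9: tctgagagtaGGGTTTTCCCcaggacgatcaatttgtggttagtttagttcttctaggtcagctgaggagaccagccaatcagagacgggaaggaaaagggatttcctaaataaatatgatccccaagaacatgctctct
Cxcl10: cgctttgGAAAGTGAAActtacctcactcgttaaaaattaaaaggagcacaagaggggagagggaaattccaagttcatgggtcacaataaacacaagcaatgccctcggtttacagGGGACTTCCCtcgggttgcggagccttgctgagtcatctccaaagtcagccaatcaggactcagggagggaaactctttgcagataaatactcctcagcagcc

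The response element was searched as GAAANNGAAA on either strand. It was in 978 of the 32851 promoters (2.98%) and in those of 2 of the 43 chemokine genes, Cxcl10 and Cxcl14. Cxcl14, which attracts monocytes and other cells, was at 6.96 and 8.60 CPM in transgenic, 4.42 and 3.44 CPM in vehicle and 4.37 and 11.6 CPM in progesterone libraries. Its vehicle libraries lay below its transgenic libraries (log2 fold change -0.98 ± 0.50 SE, edgeR unadjusted p = 0.0913), as did those of 17.7% of all genes. Cxcl10 had the same order, and so had Cxcl9, which carried no match to the response element. Here too a match is a description of letters, and its part in these levels was not tested.

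Pf4, platelet factor 4, is stored in platelets and is also made by macrophages in mice. It was at 34.7 and 23.1 CPM in transgenic, 29.0 and 19.4 CPM in vehicle and 46.4 and 51.5 CPM in progesterone libraries. Both progesterone libraries were above the other 4. The log2 fold change was 1.01 ± 0.28 (SE, edgeR unadjusted p = 0.00862, adjusted p = 0.932) against vehicle and 0.76 ± 0.28 (unadjusted p = 0.0298) against transgenic tumours. The platelet markers Itga2b, Gp9, Gp6 and Treml1 (4 of 5 listed) summed to 6.41 and 3.71, 15.6 and 4.56, and 4.75 and 4.14 CPM in transgenic, vehicle and progesterone libraries. Gp9 was at 0 in progesterone library 1 and at 0.0414 CPM in progesterone library 2. The part of platelets in the Pf4 values was not tested.

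Cxcl12 (SDF-1), the CXCR4 ligand of stromal cells, was at 11.6 and 7.46 CPM in transgenic, 16.4 and 6.20 CPM in vehicle and 2.86 and 41.2 CPM in progesterone libraries. The progesterone group held both the lowest and the highest library, 14.4-fold apart. Cxcl16, a transmembrane ligand of CXCR6, was at 23.6 and 49.7, 22.9 and 32.2, and 44.1 and 27.4 CPM, and Cx3cl1 (fractalkine), the ligand of CX3CR1, at 19.3 and 10.7, 8.71 and 26.5, and 19.6 and 25.1 CPM. The groups overlapped for Cxcl16, whose exons share 18.3% of their bases with Zmynd15 on the opposite strand, and both progesterone libraries were just above the transgenic libraries for Cx3cl1. Xcl1 (lymphotactin), a product of T and NK cells that shares 18.7% of its exon bases with Gm20743 on the opposite strand, had 2 and 2, 1 and 2, and 11 and 10 counts in transgenic, vehicle and progesterone libraries. The progesterone libraries were the only ones in which Xcl1 reached the minimum of the filter.

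**Figure D3:**
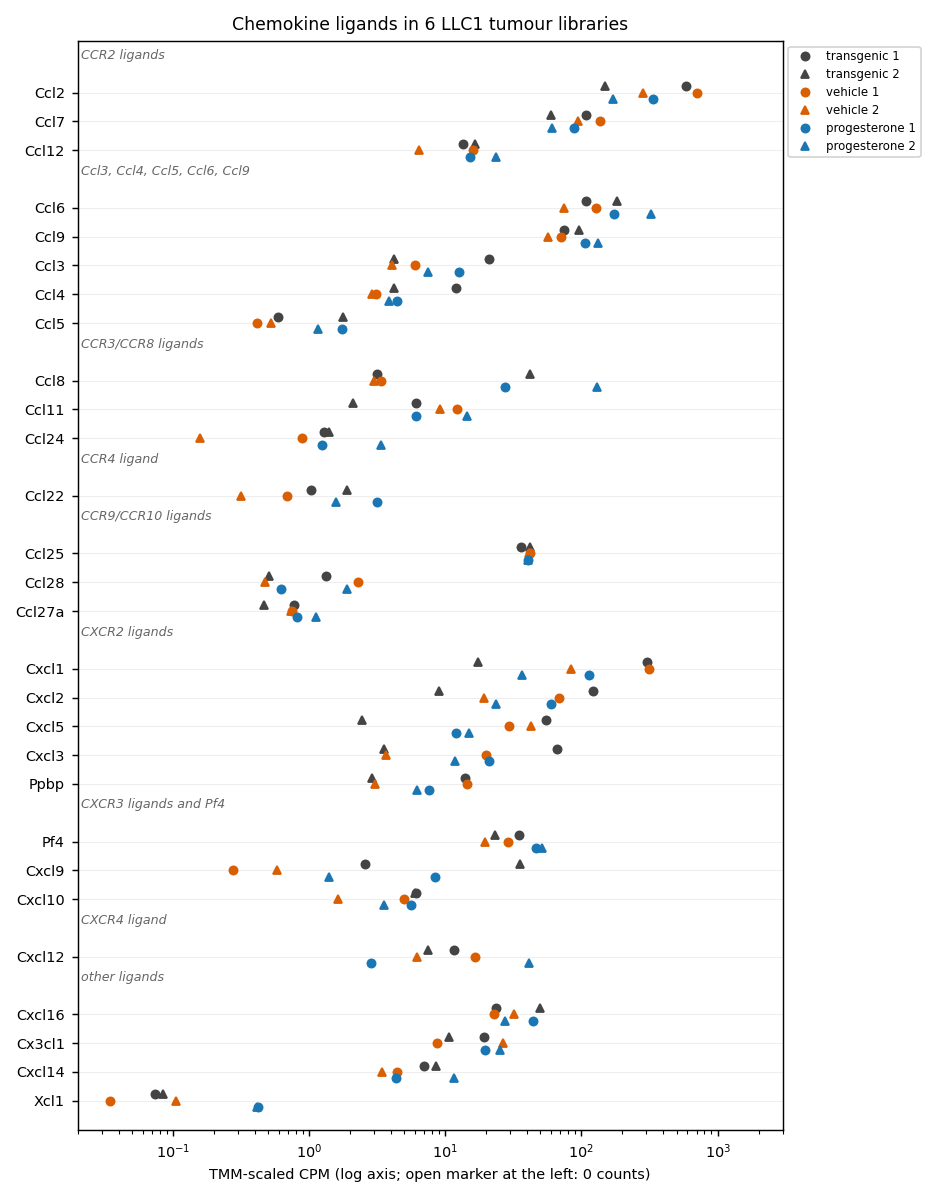
Level of each of the 28 tested ligands (rows, grouped mainly by receptor) in TMM-scaled CPM on a log axis, with 1 marker for each library. Ccl2 reaches the highest level, transgenic library 2 (dark triangles) is the lowest for all 5 CXCR2 ligands, and both progesterone libraries (blue) lie to the right of both vehicle libraries (orange) for Ccl3, Ccl4, Ccl5, Ccl6 and Ccl9.

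The 6 CC receptors given here were all higher in the progesterone than in the vehicle libraries, by margins that ranged widely. Of all genes, 18.5% had this order. For Ccr3 among them, this order was needed to pass the filter. Ccr1, a receptor of monocytes and macrophages, was at 33.3 and 39.2, 35.1 and 28.9, and 36.0 and 35.3 CPM in transgenic, vehicle and progesterone libraries, so that progesterone and vehicle tumours were hardly apart, at a log2 fold change of 0.16 ± 0.20 (SE). Ccr2, which brings monocytes from the blood, was at 15.0 and 34.5, 22.6 and 12.4, and 28.0 and 24.9 CPM. The log2 fold change of Ccr2 was 0.59 ± 0.44 (SE) for progesterone against vehicle tumours, and neither of these abundant receptors passed an unadjusted edgeR p of 0.05 in any comparison, the lowest being 0.218 for Ccr2.

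The rarer CC receptors gave larger fold changes on few counts. Ccr3, the eosinophil receptor of the eotaxins, had 1 and 4 counts in transgenic, 1 and 7 in vehicle and 21 and 29 in progesterone libraries, or 0.811 and 1.20 CPM in the last group. Both progesterone libraries were above the other 4, which is also how Ccr3 passed the filter. Ccr7, which guides dendritic cells and T cells to lymph nodes, was at 0.778 and 1.85 CPM in transgenic, 0.961 and 0.848 CPM in vehicle and 3.25 and 1.66 CPM in progesterone libraries. The progesterone against vehicle fold change of Ccr7 was 1.43 ± 0.65 (log2, SE), and the transgenic libraries overlapped both groups. Ccr9, the receptor of Ccl25, was at 1.30 and 1.10, 0.343 and 0.742, and 1.47 and 1.70 CPM, with vehicle lowest and progesterone highest, although 18.8% of its exon bases are shared with a gene on the opposite strand. Ccr4, the receptor of Ccl22, stayed at or below 0.519 CPM, with 14 counts in its highest library. It had 3 and 2 counts in vehicle and 4 and 12 in progesterone libraries, so its order in these groups rested on very few counts.

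Cxcr3, the receptor of Cxcl9 and Cxcl10 on activated T cells, had 4 and 4 counts in transgenic, 0 and 2 in vehicle and 15 and 25 in progesterone libraries. The count of 0 in vehicle library 1 allows up to 0.103 CPM. The progesterone libraries thus held the most counts, and only through them did Cxcr3 pass the filter. The receptor and its ligand Cxcl9 were both lowest in the vehicle libraries, but Cxcl9 was highest in transgenic library 2, where Cxcr3 was at 0.169 CPM.

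Cxcr2, the neutrophil receptor of the Cxcl1 group, was at 9.96 and 2.49 CPM in transgenic, 8.40 and 8.53 CPM in vehicle and 9.08 and 6.37 CPM in progesterone libraries. It was lowest in transgenic library 2, the library in which its ligands were lowest. Cx3cr1, carried by resident macrophages and patrolling monocytes, was at 16.2 and 5.39, 12.5 and 16.3, and 9.27 and 11.2 CPM, again lowest in transgenic library 2, and its progesterone libraries lay below its vehicle libraries (log2 fold change -0.49 ± 0.50 SE). Cxcr4, the receptor of Cxcl12, was at 13.5 and 18.6, 13.1 and 22.3, and 19.2 and 21.8 CPM, and both progesterone libraries were above both transgenic libraries. Cxcr1 did not exceed 0.689 CPM.

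Of the atypical receptors, Ackr3, which takes up Cxcl12, was at 29.6 and 33.9 CPM in transgenic, 26.8 and 35.7 CPM in vehicle and 13.1 and 53.4 CPM in progesterone libraries. Its group means of 31.8 ± 3.01, 31.2 ± 6.30 and 33.2 ± 28.4 CPM (SD, n = 2 each) were close, and the spread was widest in the progesterone group, as it was for Cxcl12. The endothelial markers Pecam1, Cdh5, Tek, Kdr, Vwf and Cldn5 (6 of 6) also summed lowest in progesterone library 1, at 97.6 CPM. They were at 223 CPM in library 2 and at 212 to 262 CPM in the other groups. Markers of lymphatic vessels (3 of 4) summed to 11.0 and 17.15, 30.2 and 9.54, and 7.80 and 98.8 CPM in transgenic, vehicle and progesterone libraries. The part of either marker set in the spread of Cxcl12 and Ackr3 was not tested. Ackr2, which clears inflammatory CC chemokines, ran from 0.154 CPM in progesterone library 1 to 1.20 CPM in progesterone library 2.

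**Figure D4:**
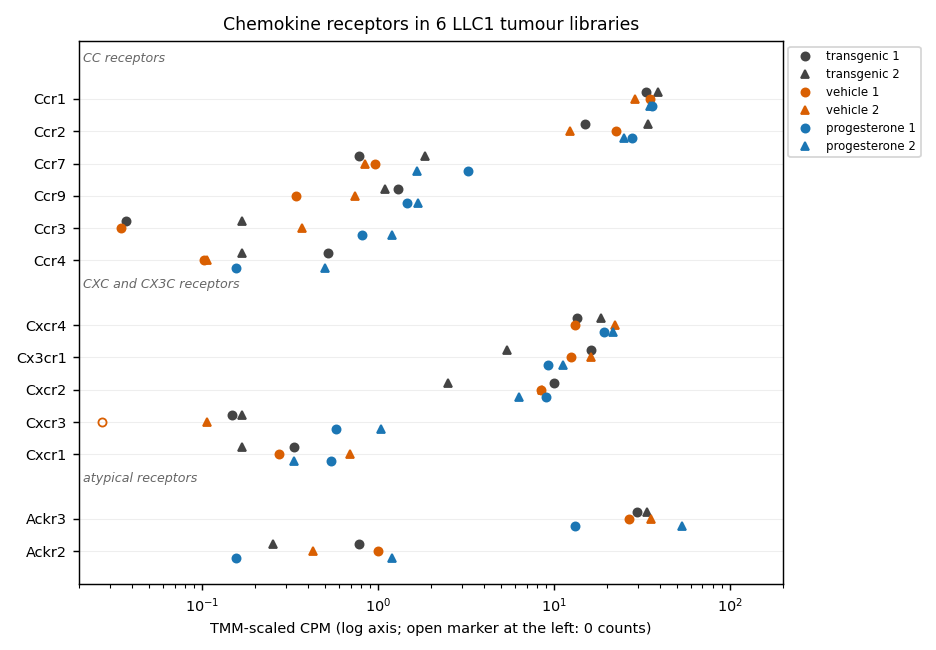
Level of 13 tested receptors (rows) in TMM-scaled CPM on a log axis, with 1 marker for each library and an open marker at the left edge for a count of 0. The 6 CC receptors have both progesterone libraries (blue) to the right of both vehicle libraries (orange), though Ccr3 passed the filter only through the progesterone libraries. Of all genes, 18.5% had this order. The lowest marker of Cxcr2 and of Cx3cr1 is transgenic library 2.

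The other 14 members did not pass the filter and were not tested. They were Ccl1, Ccl17, Ccl20, Cxcl13, Cxcl15 and Cxcl17 among the ligands and Ackr1, Ackr4, Ccr6, Ccr8, Ccr10, Cxcr5, Cxcr6 and Xcr1 among the receptors. Cxcr6, the receptor of Cxcl16 on effector T cells, reached the highest level of these, 1.47 CPM (35 counts) in transgenic library 2, with 2 to 6 counts in each of the other 5 libraries. Ackr1, which carries chemokines across venules, had 26 counts in progesterone library 2 and 0 to 6 elsewhere, and shares 25.7% of its exon bases with Cadm3 on the same strand. Cxcl13, the B cell attractant, had 8 and 9 counts in the progesterone libraries and 0 to 2 in the other 4. Cxcl15 had 10 counts in vehicle library 2 and 0 in every other library.

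Spread within groups had a higher median over the tested chemokine genes than over all genes. The 2 sets were not matched for level, and rare members rest on few counts. Ccr3, at 1 and 7 counts in vehicle libraries, was 10.8-fold apart there. The ratio of the higher to the lower library of a group had a median over the tested chemokine genes of 2.04 in transgenic, 1.7 in vehicle and 1.6 in progesterone tumours, against 1.26, 1.16 and 1.23 over all genes tested. The 2 libraries were more than 2-fold apart for 21 of 42 chemokine genes in transgenic (14.8% of all genes), 18 of 41 in vehicle (9.03%) and 13 of 42 in progesterone tumours (12.6%). For 30 of the 42 genes the largest ratio within a group exceeded the ratio between the highest and the lowest group mean. The former compares single libraries and the latter means, which vary less. This count was not made over all genes, so it is a description and no trait of chemokine genes. Group means were highest in progesterone tumours for 13 of 28 ligands and 8 of 14 receptors, in transgenic tumours for 7 and 2, and in vehicle tumours for 8 and 4. The progesterone counts include Xcl1, Ccr3 and Cxcr3, whose place was set by the filter, and near ties such as Ackr3. No share over all genes was computed for these counts.

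Several members lie side by side in the genome, and neighbours differed in their pattern. On chromosome 11, Ccl2, Ccl7, Ccl11, Ccl12 and Ccl8 lie in this order between 82035571 and 82116799 (GRCm38). Ccl2 and Ccl7 at one end had vehicle as the group with the highest mean, Ccl8 at the other end had progesterone, and Ccl11 between them was lowest in the transgenic libraries. On chromosome 5, Cxcl5, Ppbp, Pf4, Cxcl3, Cxcl15, Cxcl1 and Cxcl2 lie between 90759360 and 90905938. Pf4 stood clear of its neighbours there, as its transgenic libraries were 1.5-fold apart where those of Ppbp and Cxcl3 on either side were 4.81-fold and 18.8-fold apart. The receptors Ccr9, Ccr1, Ccr3 and Ccr2 lie between 123678439 and 124113557 on chromosome 9, and these 4 were all higher in progesterone than in vehicle libraries. Of these, Ccr3 had to be high in the progesterone libraries to pass the filter, and Ccr1 differed by a log2 fold change of only 0.16. Cxcr6 and Xcr1, which were not tested, lie in the same stretch. Cxcr6 went the other way on few counts, with 6 and 6 in vehicle and 5 and 2 in progesterone libraries, and Xcr1 had 0 to 3 counts in each library.

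By edgeR with the filter, 0 genes of the 3 pathway lists below were called (smallest adjusted p 0.81). For progesterone against vehicle tumours, DESeq2 called Dpp4 and Rgs16 of the signalling and processing genes, among 73 of all 19288 genes. Without the filter, edgeR called these and Rarres2, among 92 of all 19288 genes. Of 32 signalling and processing genes tested, 16 had a log2 fold change above 0 for vehicle against transgenic tumours, 20 for progesterone against vehicle and 25 for progesterone against transgenic, with medians of 0.01, 0.25 and 0.31. At an unadjusted edgeR p under 0.05 there were 2 higher and 0 lower in the first comparison, 6 and 1 in the second and 3 and 0 in the third. Of all 13632 genes, 5.57%, 5.29% and 5.27% passed this p in either direction. Of these genes 6608, 6963 and 6947 were above 0, with medians of -0.01, 0.01 and 0.01. Rgs16, which shuts off G protein signals of chemokine receptors, was at 77.6 and 60.0 CPM in transgenic, 170 and 94.6 CPM in vehicle and 24.4 and 56.1 CPM in progesterone libraries, so progesterone was lowest and vehicle highest (progesterone against vehicle -1.72 ± 0.43 log2, SE, edgeR unadjusted p = 0.00502). Pik3r5, a regulatory subunit of PI3K gamma downstream of these receptors, was at 12.3 and 19.0, 15.9 and 16.2, and 39.6 and 26.5 CPM, highest in the progesterone libraries (1.04 ± 0.30, edgeR unadjusted p = 0.0105). Jak3 and Rgs1 had the lowest p for vehicle against transgenic tumours, with 0.52 and 0.90 (log2). Rarres2, the precursor of chemerin, had a log2 fold change of 4.19 for progesterone against transgenic tumours, resting on 1 library (88.6 CPM in progesterone library 2 and 3.55 CPM in library 1).

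Of 22 tested genes of NF-kB and the cytokines that induce chemokines, 15 were above 0 for vehicle against transgenic tumours, 6 for progesterone against vehicle and 10 for progesterone against transgenic, with medians of 0.11, -0.22 and -0.10. At an unadjusted edgeR p under 0.05 there was 1 higher in the first comparison and 1 lower in the second and in the third. This is near the share of all genes that passed (5.57%, 5.29% and 5.27%). Nfkbiz, an NF-kB cofactor, was at 147 and 72.2 CPM in transgenic, 292 and 174 CPM in vehicle and 122 and 115 CPM in progesterone libraries, so vehicle was highest. Its log2 fold change was 1.09 ± 0.37 (SE) against transgenic and -0.97 ± 0.36 for progesterone against vehicle tumours (edgeR unadjusted p = 0.0203 and 0.0318). Ptgs2 (COX-2) was at 541.5 and 94.5, 456 and 433.5, and 182 and 144 CPM, again with both progesterone libraries below both vehicle libraries. For Il1a, an inducer of CXCR2 ligands, transgenic library 1 (10.8 CPM) and vehicle library 1 (3.64 CPM) were the highest and the other 4 at or below 0.843 CPM. These were also the 2 libraries with the highest Cxcl1, though Cxcl1 was at 304 CPM in transgenic library 1 and 311 CPM in vehicle library 1. The part of Il1a in the Cxcl1 values was not tested. Tnfaip3, an inhibitor of NF-kB, gave 0.61 for vehicle against transgenic, and the kinase Ikbke 0.46 for progesterone against transgenic tumours (log2).

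Of 12 tested genes of the interferon gamma axis, 3 were above 0 for vehicle against transgenic tumours, 9 for progesterone against vehicle and 4 for progesterone against transgenic, with medians of -0.35, 0.34 and -0.03. At an unadjusted edgeR p under 0.05 there were 3 lower in the first comparison, 1 higher in the second and 0 in the third. Over all genes 5.57%, 5.29% and 5.27% passed in either direction. Gbp2, a guanylate-binding protein induced by interferon, was at 25.9 and 89.1 CPM in transgenic, 16.3 and 13.9 CPM in vehicle and 32.7 and 18.4 CPM in progesterone libraries. It was highest in transgenic library 2 and lowest in the vehicle libraries, the order also seen for Cxcl9. Ciita, the regulator of MHC class II genes, was at 1.26 and 8.56, 0.686 and 0.795, and 4.06 and 2.90 CPM, again highest in transgenic library 2 and lowest in the vehicle libraries. Vehicle against transgenic tumours gave -1.92 ± 0.56 for Gbp2 and -2.72 ± 0.87 for Ciita (log2, SE, edgeR unadjusted p = 0.0109 and 0.0166). Gbp3 gave -1.61 in that comparison and -1.07 for progesterone against transgenic tumours. Ifng itself was at or below 0.0843 CPM in all libraries, at which depth no difference was detectable.

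Markers of white blood cells moved along with several chemokines across the libraries, and their part in the chemokine values was not tested. Macrophage markers (11 of 11 in the table) summed to 552 and 1196 CPM in transgenic, 757.5 and 783 CPM in vehicle and 1271 and 1495 CPM in progesterone libraries, and none of the 11 was at 0 in any group. Both progesterone libraries were above both vehicle libraries for 10 of the 11, an order seen in 18.5% of all genes. Ccl8, Ccl6 and Pf4 were likewise higher in the progesterone than in the vehicle libraries, and transgenic library 2, with more macrophage marker RNA than transgenic library 1, had more Ccl8 and Ccl6 but less Pf4. Cd163 reached 126 CPM in progesterone library 2, the library highest in Ccl8, against at most 8.18 CPM in the other 5.

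Neutrophil markers (8 of 8) summed to 230 and 49.4 CPM in transgenic, 168 and 169 CPM in vehicle and 155 and 107.5 CPM in progesterone libraries. Transgenic library 2 was the lowest, as for Cxcr2 and the CXCR2 ligands, but the vehicle libraries were alike in these markers where Cxcl1 differed 3.7-fold between them. Camp was at 0 in 3 libraries and Ly6g at or below 0.927 CPM. Monocyte markers (5 of 5) summed to 4631 and 1772, 9048 and 6413, and 3989 and 3908 CPM, of which Fn1, a matrix gene also made by fibroblasts and tumour cells, gave most. Ly6c2 did not exceed 2.63 CPM in any library.

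T and NK cell markers (11 of 11) summed to 2.59 and 13.9 CPM in transgenic, 1.82 and 1.91 CPM in vehicle and 6.41 and 4.39 CPM in progesterone libraries. Transgenic library 2 was the highest and the vehicle libraries the lowest, as for Cxcl9, with Cd4 and Cd8a at 0 in vehicle library 2. Mast cell markers (7 of 7) summed to 18.3 and 36.4, 32.9 and 34.8, and 110 and 208 CPM, and 6 of the 7 were higher in both progesterone libraries than in the other 4, as were 6.14% of all genes. Eosinophil markers (3 of 4) summed to at most 1.08 CPM, reached in progesterone library 2, and none of the 3 passed the filter. Their part in the Ccl11 and Ccr3 values was not tested. Dendritic cell markers (7 of 7, Xcr1 being also a receptor of the set) summed to 30.1 and 39.4, 23.2 and 28.0, and 25.2 and 32.3 CPM, with Siglech at 0 in both vehicle libraries. B and plasma cell markers (5 of 6) summed to at most 4.92 CPM, with Ms4a1 at 0 in both vehicle libraries, and fibroblast markers (7 of 7) to 7598 and 1913, 6729 and 11460, and 4937 and 9368 CPM.

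**Figure D5:**
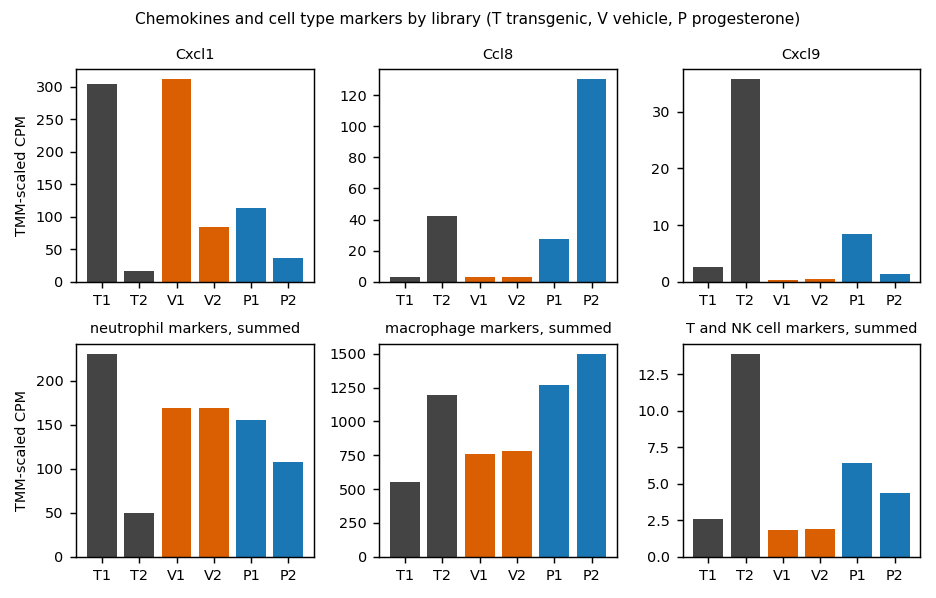
Bars give TMM-scaled CPM (vertical axes, each from 0) by library for Cxcl1, Ccl8 and Cxcl9 in the top row and for summed markers of neutrophils, macrophages, and T and NK cells below. Transgenic library 2 (T2) is lowest for Cxcl1 and the neutrophil markers and highest for Cxcl9 and the T and NK cell markers, and both progesterone libraries exceed both vehicle libraries for Ccl8 and the macrophage markers.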

How the data were processed

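The deposited table holds raw read counts per gene, not normalized, for mRNA of 6 LLC1 tumour libraries (3 groups of 2). Per the submitters' processing notes the tools were HISAT2, HTSeq and DESeq on GRCm38.p6. The sources used here do not give versions, settings or whether counting used strand, so reads of overlapping genes, on either strand, and of near-identical copies may be split. Per the labels' protocols, directional mRNA libraries were made from 500 ng of RNA with 11 PCR cycles. No count column was left unused (0).

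The members and gene lists were chosen with earlier results of these data known. Exon lengths and 1-based coordinates come from GENCODE on GRCm38, in which 19284 of 19288 gene IDs were found, and promoters from RefSeq, in which 43 of 56 members were found by symbol. Counts were filtered with filterByExpr, scaled by TMM and fitted in edgeR 4.0.16 (R 4.3.3) with 1 quasi-likelihood model over all 6 libraries (a mean for each group, 3 residual degrees of freedom). Fold changes and adjusted p-values come from this fit over 13632 genes, after a check on simulated data. CPM are TMM-scaled.

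Members with a group mean of at least 10 CPM (ligands) or 2 CPM (receptors) are named with every value. So are, per comparison and direction, up to 5 members with the smallest p among those above 0.5 CPM in the higher group whose groups do not overlap. Other members, named as examples, were chosen after their values were seen, as were Ifng and single marker genes. For each of 3 pathway lists, up to 2 genes per comparison with the smallest p are named. Values of 1 receptor and of 1 gene of the lists are not reported here. Promoters were limited to 4 members. Alternatives were RLE scaling, no filter, DESeq2 1.42.0, limma-voom (limma 3.58.1), the replicate number as a block, fits of 2 groups and leaving out each library.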

Additional observations from a re-analysis of the deposited data

How the results depend on the processing

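Without a filter on low counts, edgeR called 12, 92 and 28 genes for vehicle against transgenic, progesterone against vehicle and progesterone against transgenic tumours, and DESeq2 called 62, 73 and 47, where edgeR with the filter called 0. Without the filter, 1 chemokine gene was called for vehicle against transgenic tumours, Cxcl9 (log2 fold change -5.52, adjusted p = 0.0331), and 2 for progesterone against vehicle, Ccl8 (4.61, adjusted p = 0.00646) and Ccl6 (1.30, adjusted p = 0.0421). DESeq2 called 1 chemokine gene for progesterone against vehicle, Ccl9 (0.90, adjusted p = 0.0363). The cause was not tested. Over all alternatives, the adjusted p ran from 0.0331 to 1 for Cxcl9 in the first comparison, and from 0.00646 for Ccl8, 0.0421 for Ccl6 and 0.0363 for Ccl9 to 1 in the second. RLE scaling, limma-voom, fits of only the 2 groups compared and the fits without 1 library called 0 chemokine genes. Leaving out 1 library at a time, where the lone library of a group is assumed to vary like the others, the median log2 fold change of the tested chemokine genes ran from -0.59 to -0.10 for vehicle against transgenic, from 0.46 to 1.10 for progesterone against vehicle and from 0.08 to 0.83 for progesterone against transgenic tumours. The number of genes above 0 ran from 13 to 19, 28 to 31 and 24 to 31, counted after seeing the data. The number at an unadjusted edgeR p under 0.05, also counted after seeing the data, moved with single libraries. Without transgenic library 1 there were 8 higher and 7 lower for vehicle against transgenic tumours (13.3% of all genes passed, against 5.57% with all libraries), and without progesterone library 2 there were 6 higher and 2 lower for progesterone against vehicle (4.6% of all genes, against 5.29%) and 0 higher and 1 lower for progesterone against transgenic (6%, against 5.27%). The fold changes of the chemokine genes at an unadjusted p under 0.05 kept their sign under these alternatives and with the replicate block, except Ccl8 for vehicle against transgenic tumours, which was at 0.03 without transgenic library 2.

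Libraries carry the numbers 1 and 2 in each group, and the labels do not say that the numbers pair libraries. Deviations of same-numbered libraries from their group means correlated at 0.08, -0.17 and -0.13 for the 3 pairs of groups. These values over all genes do not decide on single genes. Library 1 was above library 2 in each group for some members, such as Cxcl1 and Cxcl2, and not for others, such as Cxcl5. Whether same-numbered libraries share more than a number was not tested. With the replicate block edgeR called 0 genes in each comparison, and the medians were -0.26, 0.58 and 0.38.

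Members under 1 CPM rest on few counts. With 2 libraries a group, no single-gene exact test can go below p = 0.333.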

Other observations

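Cxcl11, the third interferon-induced ligand of CXCR3, is classed as a polymorphic pseudogene in the table and so lay outside the naming rule. It had 8 and 27 counts in transgenic, 1 and 0 in vehicle and 8 and 3 in progesterone libraries, and the vehicle libraries were again the lowest.

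Genes that handle chemoattractants but are no chemokines gave 2 outlying values in progesterone library 2. Rarres2, the precursor of the macrophage attractant chemerin, was at 88.6 CPM there and at 4.35 CPM or less in the other 5 libraries. Dpp4, the protease that trims several chemokines, was at 11.5 CPM there and at 0.969 CPM or less elsewhere. This was also the library with the highest Ccl8, Ccl6, Cxcl12 and Ackr3. The chemerin receptor Cmklr1 was at 6.52 and 15.0 CPM in transgenic, 8.13 and 6.78 CPM in vehicle and 12.2 and 11.1 CPM in progesterone libraries. Ccrl2, which binds chemerin without signalling, was between 2.74 and 6.72 CPM in all libraries.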
